A study of Saccharomyces cerevisiae with 36 samples.

Results

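The genes described here encode the subunits of the yeast proteasome and RPN4, their transcriptional activator. They were taken from a fixed list of 33 gene names, 32 for subunits and 1 for RPN4. All 33 were found among the 5713 named genes of the array, on 66 spots. Of these, 31 had values on at least 24 arrays and were tested, 30 of them subunit genes, among 5391 genes in the fit.

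The proteasome degrades proteins that carry a ubiquitin chain. Its 20S core is a barrel of alpha rings, which gate the entry, and beta rings, which hold the peptidase sites. The 19S regulatory particle sits on the core: its base holds a ring of RPT ATPases that unfold substrates, and its lid removes the ubiquitin. In budding yeast Rpn4 binds the promoters of most subunit genes, and is itself degraded by the proteasome, so that its level responds to proteasome activity. Subunit genes are therefore known as a group that can be raised together.

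The study compared cultures of budding yeast treated with 1 of 3 compounds that disturb the cell wall or its signalling with untreated cultures, on 36 arrays of 2 colours. Caffeine, which inhibits the TORC1 growth kinase and triggers cell wall signalling, was given at 2 and 20 mM. The dyes calcofluor white and congo red, which bind wall polymers and disturb their assembly, were each given at 0.02 and 0.1 mg/ml. Each drug and dose was sampled at 5, 15 and 90 min, which makes 18 conditions of 2 biological replicates. The dyes were swapped between them: replicate 1 carried its treated RNA in Cy5, replicate 2 in Cy3. The untreated partner lay in the other channel of the same array; no strain is given in the labels, and whether drugs shared untreated cultures is not stated there. On 7 arrays parts of the labels disagreed on dose or time, and titles and the treated channel's name were followed. Among them is replicate 1 of caffeine 20 mM at 15 min, whose untreated channel is labelled with another time. Every value of that condition, and every difference from it, carries this doubt. In these bulk cultures, fewer cells carrying a transcript and less transcript per cell cannot be told apart.

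All values below are log2 ratios of treated over untreated RNA, centred on each array's median, so a change is relative to the middle gene of that array. The direction is taken as likely from the submitters' descriptions and was not stated for the values themselves. Estimates carry the standard error (SE) of the limma fit, with 2 arrays per condition, and a gene passed where its Benjamini-Hochberg adjusted p over all genes tested was below 0.05. Between 1.61% and 16.1% of named spots on an array lay at a repeated floor value and were left out; for the members it was 4.92% of 2376 spot values. Replicate arrays correlated at 0.672 in caffeine 20 mM at 90 min and at 0.531 at 15 min, but below 0 in 13 of the 18 conditions, and a dye term was fitted for each gene. The number of arrays limits the precision throughout.

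Single proteasome genes changed, in both directions, and many others did not pass in any condition. The most calls came after 90 min of 20 mM caffeine, where 4 of 31 members rose and 6 fell. Those shares lay below the background, since 22% of all genes tested rose and 22.4% fell there. The subunit genes had a median of -0.07 in caffeine at 20 mM and 90 min, beside -0.03 over all genes. Their values spread less than those of all genes, with a standard deviation of 0.453 over subunits and 0.691 over all genes. With all arrays scaled to the same spread, the calls of SCL1, PRE3, PRE7, RPT2, RPN1, RPN3 and RPN12 in this condition were lost. Those of PRE8, RPT6 and RPN9 stayed. The calls of SCL1 and RPT2 were also lost with the caffeine arrays alone, and that of PRE7 with array weights or joint adjustment.

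**Figure D1:**
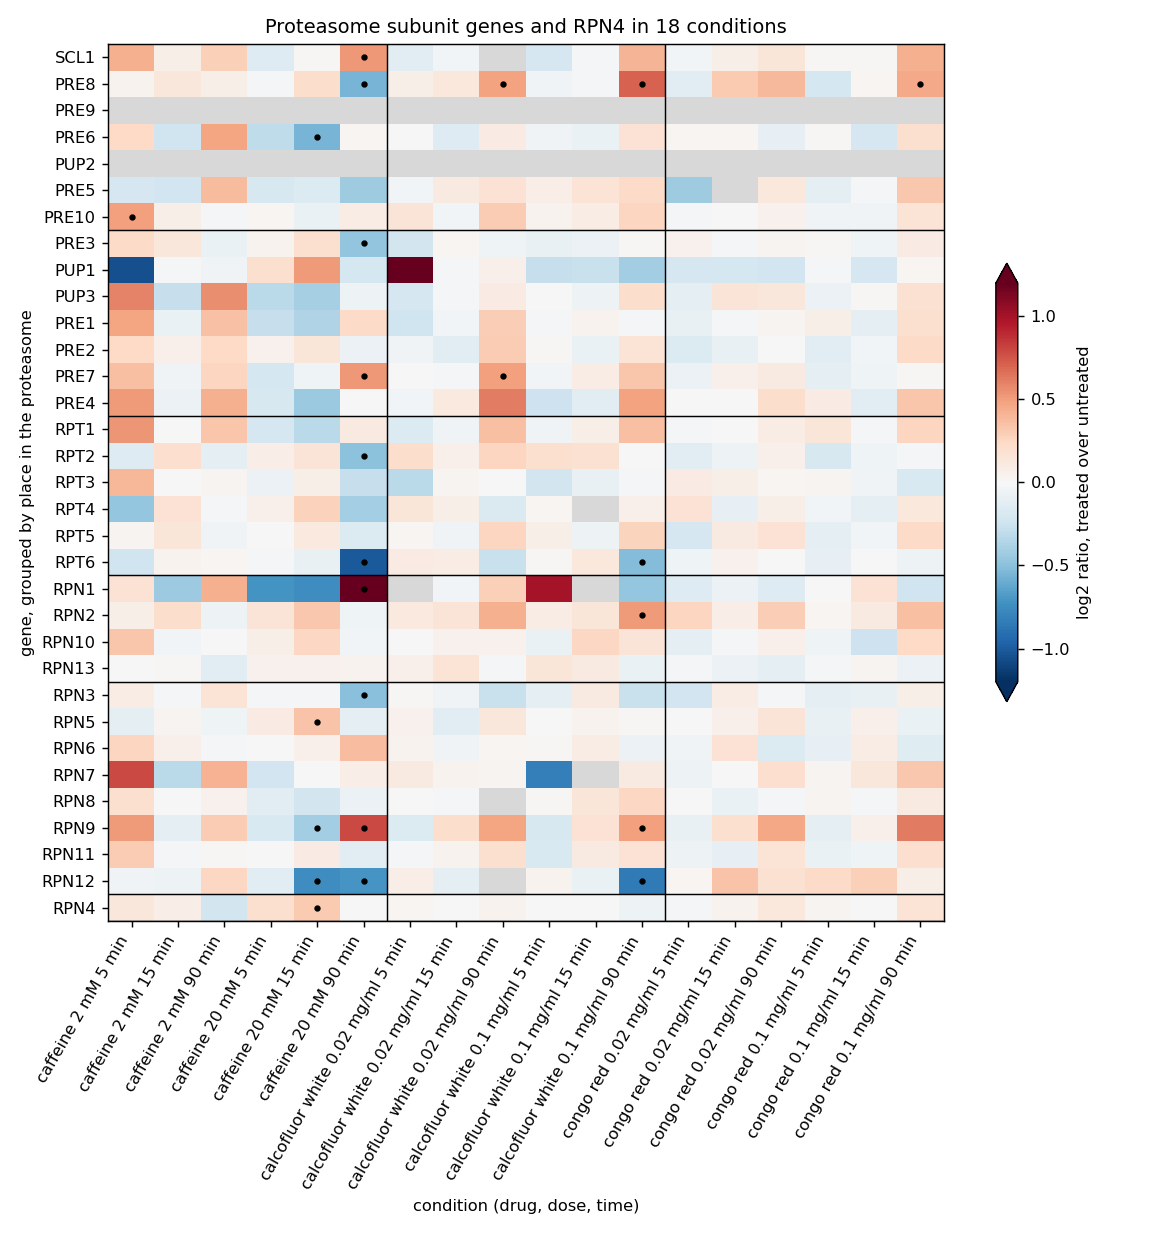
Log2 ratio of treated over untreated RNA for the 33 members (rows, grouped from the top as alpha ring, beta ring, ATPases, other base subunits, lid and RPN4) in the 18 conditions (columns, by drug, dose and time). Black dots mark an adjusted p below 0.05 and grey cells have no test. Most cells are pale, and dotted red and dotted blue cells both occur in the column of caffeine 20 mM 90 min, where 4 members rose and 6 fell.

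RPN4, the activator, stayed between -0.22 and 0.31 over the 18 conditions. It was highest in caffeine 20 mM at 15 min, at 0.282 in replicate 1 and 0.341 in replicate 2. Both arrays lay above 0. The replicate 2 value averages 2 duplicate spots that differ, at 0.534 and 0.147, where the median duplicate difference of the members was 0.0755. The estimate was 0.31 ± 0.11, or 1.24-fold, and passed narrowly (limma, adjusted p = 0.0438). It passed under 5 of 13 alternative settings, and leaving out replicate 1 (0.33) or replicate 2 (0.30) ended the call. The label of the untreated channel of replicate 1 gives another time than the treated channel.

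RPN4 over the caffeine 20 mM series read 0.26 and 0.123 at 5 min, 0.282 and 0.341 at 15 min, and 0.0254 and -0.00746 at 90 min in replicates 1 and 2. Both arrays thus lay above 0 at the early times and near 0 at the late one. The difference of 90 minus 15 min was -0.30 ± 0.16 and did not pass (limma, adjusted p = 0.145). Against the mean of both dyes at 15 min, caffeine was higher by 0.31 ± 0.14, which did not pass either (limma, adjusted p = 0.132).

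In the lower caffeine dose RPN4 read 0.13 ± 0.11 at 5 min, 0.08 ± 0.11 at 15 min and -0.22 ± 0.11 at 90 min. The last is its lowest value of all conditions, with -0.317 and -0.116 on the arrays. In the dyes its estimates ran between -0.06 in calcofluor white 0.1 mg/ml and 0.16 in congo red 0.1 mg/ml, both at 90 min. None of the 17 conditions other than caffeine 20 mM 15 min passed for this gene. Over the conditions its standard deviation was 0.113, smaller than that of any subunit gene but RPN13 at 0.0838.

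**Figure D2:**
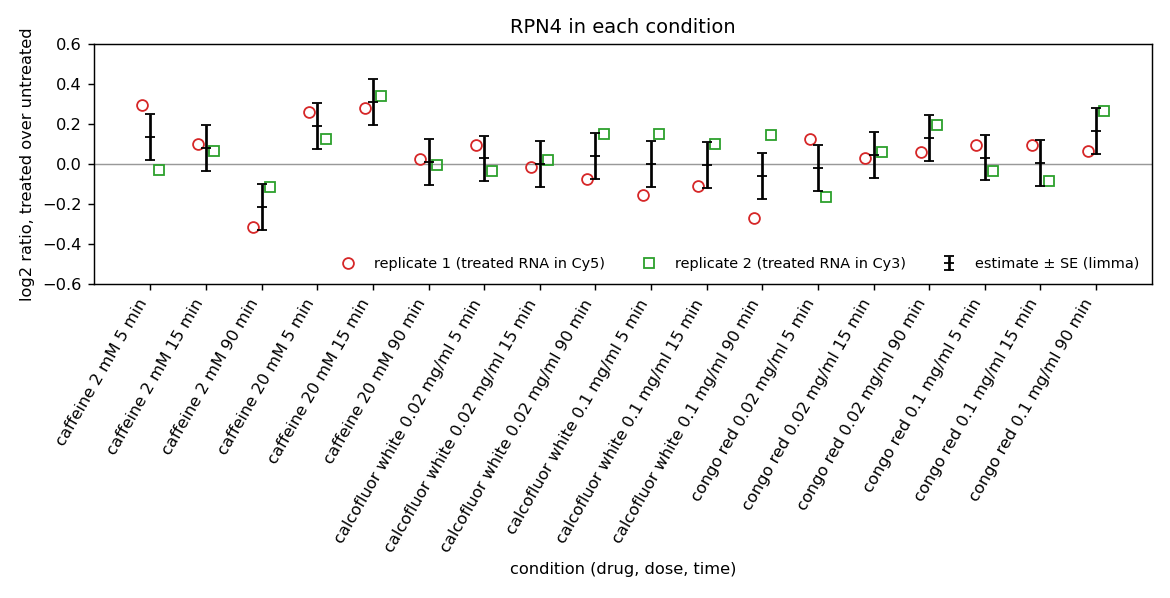
RPN4 in each condition: log2 ratio of treated over untreated RNA on replicate 1 (circles), replicate 2 (squares) and the limma estimate with its SE (bars). All estimates lie between -0.22 and 0.31, and in caffeine 20 mM both arrays lie above 0 at 5 and 15 min and near 0 at 90 min.

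Among the alpha ring genes, PRE8 passed in 4 conditions, and the direction depended on the drug. In caffeine 20 mM at 90 min it read -0.837 and -0.279 on the arrays, an estimate of -0.56 ± 0.10 (limma, adjusted p = 1.04e-04). In calcofluor white 0.1 mg/ml at 90 min it read 0.399 and 1.02, an estimate of 0.71 ± 0.10 (limma, adjusted p = 4.13e-05). The replicate 2 value rests on 1 spot, the other being at the floor. In congo red 0.1 mg/ml at 90 min it read 0.324 and 0.591, an estimate of 0.46 ± 0.10 (limma, adjusted p = 0.0213). So both caffeine arrays lay below 0 and all 4 dye arrays above it, with no overlap.

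PRE8 was lower in caffeine 20 mM than in the mean of the dyes at 90 min by 1.14 ± 0.12 on the log2 scale, with -0.56 in caffeine and 0.58 in the dyes (limma, adjusted p = 9.63e-07). This difference passed under all 14 alternatives tried for it. The difference built up late: over 90 minus 15 min PRE8 fell by 0.76 ± 0.14 in caffeine 20 mM (limma, adjusted p = 3.29e-04). Over the same times it rose by 0.73 ± 0.14 in calcofluor white 0.1 mg/ml (limma, adjusted p = 0.011). That last call is not firm: it was lost without calcofluor white 0.1 mg/ml 15 min replicate 1 or 90 min replicate 2, and labels of both 15 min arrays disagree. It also rose at the low calcofluor dose at 90 min, where the arrays read 0.402 and 0.556 and the estimate was 0.48 ± 0.10 (limma, adjusted p = 0.00256); leaving out replicate 1 ended that call. At the low congo red dose the arrays read 0.251 and 0.521 and the test was not passed (limma, adjusted p = 0.0812). The congo red call at 0.1 mg/ml was lost without either array, at 0.44 to 0.48.

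Congo red and calcofluor white at 0.1 mg/ml and 90 min did not differ for PRE8 past the threshold: the difference was -0.25, with a 95% interval of -0.54 to 0.04. SCL1, another alpha ring gene, read 0.459 and 0.575 in caffeine 20 mM at 90 min, above 0 on both arrays, and rose by 0.52 ± 0.14 (limma, adjusted p = 0.00429), a call lost without replicate 2. PRE6 read -0.53 and -0.588 in caffeine 20 mM at 15 min and fell by 0.56 ± 0.18 (limma, adjusted p = 0.0214), a call lost without either array. At 90 min PRE6 read 0.03 ± 0.18, and its difference of 90 minus 15 min did not pass.

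PRE5 passed in no single condition, yet differed between conditions at 90 min. It read -0.689 and -0.158 in caffeine 20 mM, against 0.141 and 0.314 in calcofluor white and 0.134 and 0.505 in congo red at 0.1 mg/ml. Both caffeine arrays lay below 0 and all 4 dye arrays above it. Caffeine minus the dyes was -0.70 ± 0.24 (limma, adjusted p = 0.0331). The call passed under 5 of 14 alternatives and was lost, among others, without caffeine 20 mM 90 min replicate 1.

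Only 1 member passed in caffeine 2 mM: PRE10, an alpha ring gene, at 5 min. It read 0.636 and 0.34, an estimate of 0.49 ± 0.11 (limma, adjusted p = 0.013). In this condition 3.12% of all genes rose and 2.03% fell, so 1 of 31 members higher and 0 lower is the background level. Both arrays lay above 0, and the estimate stayed there without either of them (0.277 to 0.7). Turning the sign of replicate 1, the larger value, brought PRE10 to -0.148 by arithmetic alone. The direction thus rests on the orientation of replicate 1 being as labelled. Over all genes that array correlated at -0.375 with replicate 1 of caffeine 2 mM at 15 min, which has the same dye orientation. Its 2 arrays ran against each other over all genes (r = -0.176), and the subunit median was 0.436 in replicate 1 and -0.014 in replicate 2. Without replicate 1 PRE10 did not pass (0.28), and the count was 2; without replicate 2 it was 13.

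PRE9 and PUP2, the remaining alpha ring genes, lay at the floor on many arrays and were not tested. PRE9 had values on 15 arrays, between -2.71 and 1.73 with a median of -0.08. PUP2 had values on 19 arrays, between -1.52 and 1.84 with a median of 0.36. Their spread is wide for genes measured so seldom, and no direction can be read from them.

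Of the 7 beta ring genes, PRE3 and PRE7 passed in at least 1 condition. PRE3, the caspase-like subunit, read -0.621 and -0.328 in caffeine 20 mM at 90 min and fell by 0.47 ± 0.12 (limma, adjusted p = 0.00334). PRE2, the chymotrypsin-like subunit, read -0.188 and 0.0435 there and did not pass (-0.07 ± 0.13). PUP1, the trypsin-like subunit, was not reproducible in caffeine 20 mM at 90 min (estimate -0.22 ± 0.36), and PRE3 was lost without replicate 1.

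PUP1 had the widest range of the members, between -1.06 in caffeine 2 mM and 1.56 in calcofluor white 0.02 mg/ml, both at 5 min. In the second of these 1 array decided the value, with 3.14 in replicate 1 and -0.017 in replicate 2. Neither passed the test. PRE7, a structural beta subunit, read 0.433 and 0.607 in caffeine 20 mM at 90 min and rose by 0.52 ± 0.15 (limma, adjusted p = 0.00952). It also rose in calcofluor white 0.02 mg/ml at 90 min, with 0.575 and 0.404 and an estimate of 0.49 ± 0.15 (limma, adjusted p = 0.0449). The first call was lost without replicate 2 and the second without either array. PRE4, another structural beta subunit, had the flattest result in caffeine 20 mM at 90 min, 0.01 ± 0.21, with -0.228 and 0.242 on the arrays.

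Of the 6 genes of the ATPase ring, 2 fell in caffeine 20 mM at 90 min and 0 rose, where 22.4% of all genes fell and 22% rose. Their median was -0.34, beside -0.03 over all genes. RPT6 had the largest decrease that passed among the members: it read -0.521 and -1.5, an estimate of -1.01 ± 0.14, or 2.02-fold lower (limma, adjusted p = 5.03e-06). RPT2 read -0.474 and -0.516 and fell by 0.50 ± 0.11 (limma, adjusted p = 0.0011). Both arrays were below 0 for both genes, with RPT2 nearly equal on the arrays and RPT6 lower in replicate 2. The RPT6 call passed under all 13 alternatives; RPT2 was lost without replicate 2.

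RPT6 was also lower in calcofluor white 0.1 mg/ml at 90 min, at -0.384 and -0.654, an estimate of -0.52 ± 0.14 (limma, adjusted p = 0.0123), which was lost without either array. In congo red 0.1 mg/ml it read -0.0187 and -0.112 and did not pass. The dyes differed by 0.45 for RPT6 (congo red minus calcofluor white, 95% interval 0.05 to 0.86), which did not pass over all genes (limma, adjusted p = 0.344). In caffeine 20 mM, 90 minus 15 min was -0.92 ± 0.19 (limma, adjusted p = 0.00114), a call lost with no replicate block or with arrays scaled to one spread.

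Compared with the dyes at 90 min, all 6 ATPase genes lay lower in caffeine 20 mM, with a median difference of -0.45 beside -0.06 over all genes. RPT2, RPT5 and RPT6 passed, at -0.49 ± 0.14, -0.41 ± 0.11 and -0.72 ± 0.17 (limma, adjusted p = 0.0106, 0.00808 and 0.00302). RPT5 itself passed in no condition. It read -0.351 and 0.0227 in caffeine, against 0.0849 and 0.447 in calcofluor white and 0.0169 and 0.45 in congo red, so 1 caffeine array overlapped the dyes. All 3 of these calls were lost without caffeine 20 mM 90 min replicate 2.

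RPT4 fell between 15 and 90 min of 20 mM caffeine by 0.68 ± 0.24 (limma, adjusted p = 0.0319). Its arrays disagreed at both times, with 0.176 and -0.987 at 90 min against 0.716 and -0.157 at 15 min, and the call passed under 5 of 13 alternatives. RPT1 and RPT3 passed in no comparison.

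**Figure D3:**
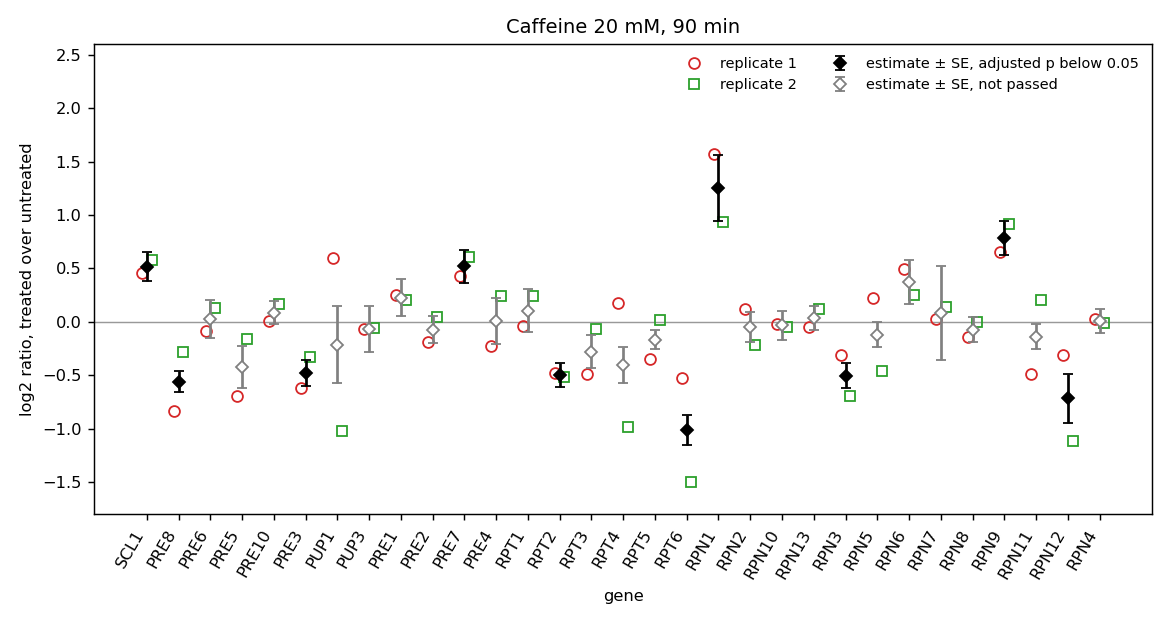
Caffeine 20 mM at 90 min: log2 ratio of treated over untreated RNA of the 31 tested members (x axis, by place in the proteasome) on replicate 1 (circles) and replicate 2 (squares), with the limma estimate and its SE (diamonds, filled where the adjusted p is below 0.05). RPN1 and RPN9 stand above 0, RPT6 and RPN12 below, and the median subunit lies at -0.07.

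In the remainder of the base, RPN1 changed most. It encodes a large scaffold that docks shuttle factors carrying ubiquitinated proteins. RPN1 read 1.57 and 0.931 in caffeine 20 mM at 90 min, an estimate of 1.25 ± 0.31, or 2.38-fold higher (limma, adjusted p = 0.00281). Earlier it lay on the other side of 0, at -0.985 and -0.454 at 5 min and -0.836 and -0.645 at 15 min, without passing.

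The change of RPN1 over time was tested: 90 minus 15 min was 1.99 ± 0.44 (limma, adjusted p = 0.00205) and 90 minus 5 min was 1.97 ± 0.44 (limma, adjusted p = 0.00221). The first was lost with arrays scaled to one spread, and the second without caffeine 20 mM 5 min replicate 1, at 1.49. It was also higher in caffeine than in the dyes at 90 min by 1.60 ± 0.38, with -0.35 in the dyes (limma, adjusted p = 0.00388). RPN1 had one of the larger errors among the members. It had values on 34 arrays and was tested in 16 conditions, the fewest of the tested members. Its dye mean at 90 min includes replicate 1 of calcofluor white 0.1 mg/ml. That value rests on 1 spot, the other being at the floor. RPN1 read 1.31 and 0.686 in calcofluor white 0.1 mg/ml at 5 min, which did not pass over all genes. The late caffeine call was lost without replicate 1 of caffeine 20 mM 90 min.

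RPN2, the second scaffold, rose in calcofluor white 0.1 mg/ml at 90 min, where it read 0.581 and 0.447 (0.51 ± 0.14; limma, adjusted p = 0.0185). The call was lost without either array. In caffeine 20 mM it read 0.123 and -0.218, lower than in the dyes by 0.48 ± 0.18 (limma, adjusted p = 0.0449), which passed under 5 of 15 alternatives. The ubiquitin receptor genes RPN10 and RPN13 passed in no comparison. RPN13 was the steadiest member, with estimates between -0.13 and 0.16.

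The lid held calls of both signs. RPN9, a lid scaffold subunit, read 0.657 and 0.919 in caffeine 20 mM at 90 min, an estimate of 0.79 ± 0.16, or 1.73-fold higher (limma, adjusted p = 3.71e-04). RPN12, another lid subunit, read -0.31 and -1.11, an estimate of -0.71 ± 0.23 (limma, adjusted p = 0.0159). RPN9 passed under 12 of 13 alternatives and was lost without replicate 2 (0.51), while RPN12 passed under 4 of 12 and was lost without either array.

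RPN9 had read -0.435 and -0.408 in caffeine at 15 min, both below 0, and was called lower there (-0.42 ± 0.16; limma, adjusted p = 0.0472). The untreated channel of replicate 1 at 15 min is labelled with another time, which bears on the change to 90 min too. The turn of 1.21 ± 0.22 for 90 minus 15 min passed under all 14 alternatives (limma, adjusted p = 3.70e-04). The early call alone was lost without either array. RPN9 was above 0 at 90 min in the dyes too. It read 0.634 and 0.345 in calcofluor white 0.1 mg/ml (0.49 ± 0.16; limma, adjusted p = 0.0407), a call lost without either array. In congo red 0.1 mg/ml it read 0.658 and 0.587, which just missed the threshold (0.62 ± 0.16; limma, adjusted p = 0.0516). The gene therefore showed positive values with all 3 drugs at 90 min.

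RPN12 was low in calcofluor white 0.1 mg/ml at 90 min as well, with -0.346 and -1.36 (-0.85 ± 0.23; limma, adjusted p = 0.0145), and in caffeine 20 mM at 15 min, with -0.33 and -1.15 (-0.74 ± 0.23; limma, adjusted p = 0.019). In each of these conditions replicate 2 lay far below replicate 1, and the calls were lost without either array. The estimates themselves moved less, since the fit holds a dye term for each gene. With 1 array left out they were -0.863 and -0.841 in calcofluor white, and -0.852 and -0.629 in caffeine at 15 min. In congo red 0.1 mg/ml at 90 min it read 0.254 and -0.111.

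RPN3, a lid scaffold subunit, read -0.312 and -0.692 in caffeine 20 mM at 90 min and fell by 0.50 ± 0.12 (limma, adjusted p = 0.0018), a call lost without replicate 2. RPN5, a further lid scaffold subunit, read 0.68 and -0.00282 in caffeine 20 mM at 15 min, where only 1 array was above 0 (0.34 ± 0.12; limma, adjusted p = 0.0356). That call was lost without replicate 1, at 0.19. RPN11, the lid's deubiquitinating enzyme, passed in no comparison, and read -0.487 and 0.207 in caffeine 20 mM at 90 min. RPN6, RPN7 and RPN8 passed nowhere either. RPN7 had the largest error of the lid genes, with 2.3 and -0.728 in caffeine 2 mM at 5 min.

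**Figure D4:**
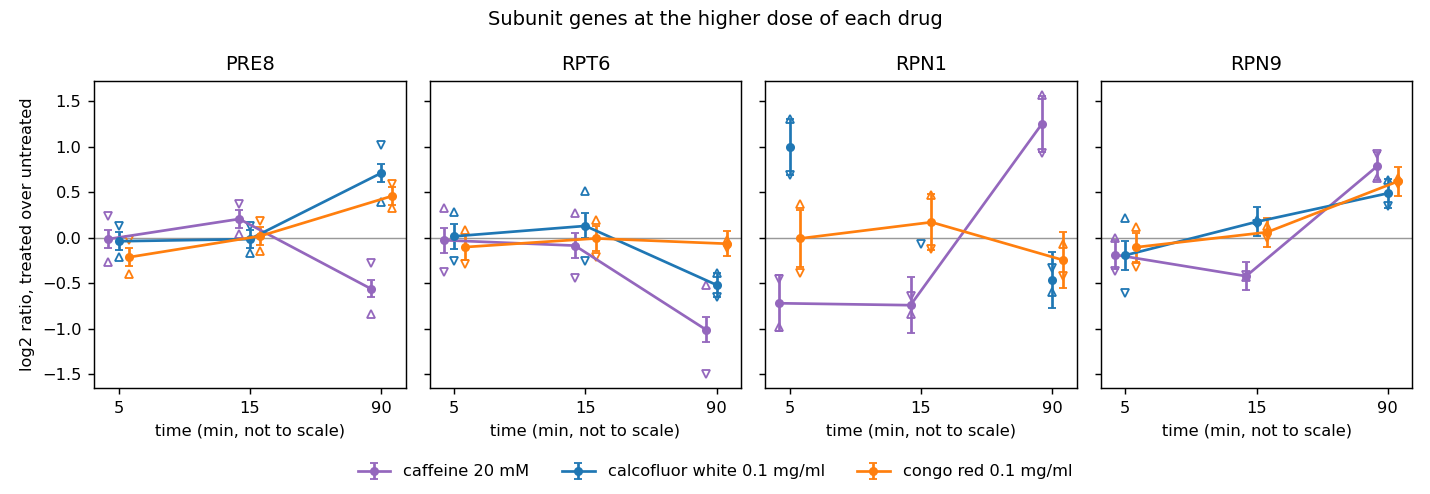
PRE8, RPT6, RPN1 and RPN9 at 5, 15 and 90 min (x axis, not to scale) of caffeine 20 mM, calcofluor white 0.1 mg/ml and congo red 0.1 mg/ml: limma estimates with SE (joined dots) and replicates 1 and 2 (upward and downward triangles), as log2 ratio of treated over untreated RNA. PRE8 splits between caffeine (-0.56) and the dyes (0.71 and 0.46) at 90 min, while RPN9 is above 0 with all 3.

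By condition, the counts of members passing stayed near or below the share of all genes wherever many genes changed. In caffeine 20 mM at 15 min 2 of 31 members rose and 3 fell, while 14.3% and 16.8% of all genes did. In calcofluor white 0.1 mg/ml at 90 min 3 of 31 rose and 2 fell, beside 6.33% and 8.34% of all genes. At 0.02 mg/ml it was 2 of 28 and 0, beside 5.51% and 5.59%, and in congo red 0.1 mg/ml 1 of 31 and 0, beside 1.12% and 0.26%. With so few members per count, none of these shares is a result about the proteasome genes.

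Single arrays moved these counts. Without replicate 2, 5 members passed in caffeine 20 mM at 90 min, 1 of them higher. At 15 min it was 0 without replicate 1 and 1 without replicate 2. In calcofluor white 0.1 mg/ml at 90 min 1 passed without either array, and at 0.02 mg/ml it was 0 without replicate 1 and 1 without replicate 2. In congo red 0.1 mg/ml 0 passed without either array. In the other 12 conditions 0 of 367 member tests passed (limma), beside 0.14% of all tests higher and 0.0678% lower. An unadjusted p below 0.05 was found in 12 of the 367, or 3.27%, against 5.13% over all genes.

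**Figure D5:**
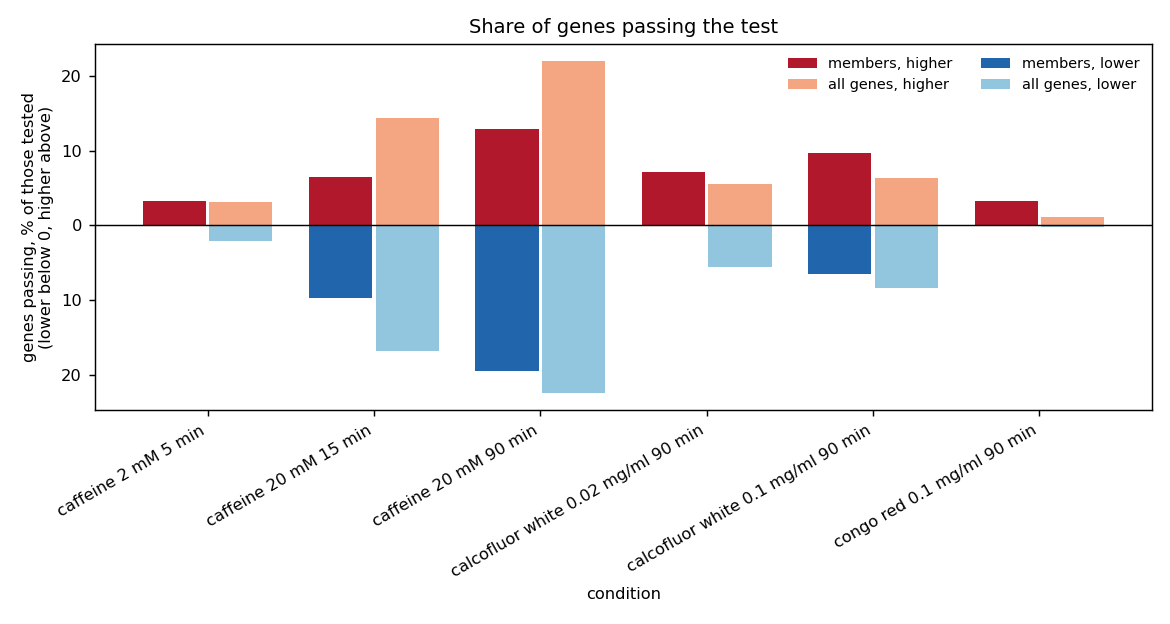
Share of members (dark bars) and of all genes tested (pale bars) with an adjusted p below 0.05, in %, higher above the zero line and lower below it, in the 6 conditions where any member passed. In caffeine 20 mM at 90 min the members' shares are 12.9% higher and 19.4% lower, beside 22% and 22.4% of all genes.

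Between conditions, member calls came mostly in contrasts with caffeine, which were most of the contrasts tested and held most calls over all genes too. For 90 minus 15 min of caffeine 20 mM 4 of 31 members were higher and 7 lower, beside 17.9% and 17.8% of all genes. For 90 minus 5 min it was 4 and 5, beside 16.8% and 15.7%. Caffeine at 20 minus 2 mM at 90 min gave 0 higher and 5 lower (PRE5, PRE8, RPT6, RPN3 and RPN12), beside 11.3% and 12%. Without caffeine 20 mM 90 min replicate 2 these counts came to 7, 5 and 3 in all. They came to 5 for 90 minus 15 min without 15 min replicate 1, and to 1 for the doses without caffeine 2 mM 90 min replicate 1. For 90 minus 5 min it was 5 without 5 min replicate 1 and 3 without replicate 2.

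Caffeine 20 mM minus the mean of the dyes at 90 min gave 1 member higher, RPN1, and 8 lower, beside 15.4% and 14.2% of all genes. The subunit median was -0.24, beside -0.06 over all genes, and 7 of 30 subunits lay above 0, or 23.3% against 44.9% of all genes. The share of lower members was 25.8%, and single arrays moved the count: 5 members passed without calcofluor white 0.1 mg/ml 90 min replicate 2 and 4 without caffeine 20 mM 90 min replicate 2. At 15 min the same comparison gave 0 higher and 1 lower, RPN12 (-0.84 ± 0.28; limma, adjusted p = 0.0437), beside 7.2% and 10% of all genes. This call was lost without any of 5 arrays, among them both of caffeine 20 mM 15 min. For 90 minus 15 min of calcofluor white 0.1 mg/ml PRE8 was the 1 of 28 higher and 0 were lower, beside 1.25% and 1.13%. In the other 9 contrasts, including congo red minus calcofluor white, 0 of 276 member tests passed (limma), beside 0.488% of all tests higher and 0.709% lower. An unadjusted p below 0.05 was found in 23 of these member tests, or 8.33%, against 12.1% over all genes.

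Under the dyes at 90 min the subunit medians lay slightly above 0, which was not particular to these conditions. In caffeine 2 mM the subunit median was 0.23 at 5 min, -0.002 at 15 min and 0.06 at 90 min. The median was 0.07 in congo red 0.02 mg/ml and 0.17 at 0.1 mg/ml, and 0.17 in calcofluor white 0.02 mg/ml and 0.16 at 0.1 mg/ml, beside medians within 0.01 of 0 over all genes. In congo red 0.1 mg/ml 23 of 30 subunits lay above 0, or 76.7% against 49.5% of all genes. All 5 tested alpha and all 7 beta ring genes were among them. Over all genes the 2 arrays of congo red 0.1 mg/ml correlated at -0.124. Of the subunits, 19 of 30 lay on the same side of 0 on both arrays, or 63.3%, against 37.8% of all genes. The other dye conditions at 90 min lay nearer to all genes. The shares were 40% against 37.7% in congo red 0.02 mg/ml. In calcofluor white they were 55.6% against 50% at 0.02 mg/ml and 53.3% against 49.3% at 0.1 mg/ml. The median standard error of a gene in 1 condition was 0.166, and PRE8 was the 1 member that passed in congo red 0.1 mg/ml. The subunit median there was 0.142 on replicate 1 and 0.0594 on replicate 2. In calcofluor white 0.1 mg/ml the subunit median was 0.224 on replicate 1 and 0.011 on replicate 2. In calcofluor white 0.02 mg/ml the median of all genes lay at -0.139 before centring, and the subunit median was 0.03 without centring. Without centring it was 0.09 in calcofluor white 0.1 mg/ml and 0.21 in congo red 0.1 mg/ml.

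The subunit genes varied together only in part. For the 23 with a value in all 18 conditions, the correlation of each with the mean of the others had a median of 0.45, and 10 exceeded 0.5. Among the other genes compared with the subunit mean the median was -0.02, and 3.72% exceeded 0.5. RPN11 followed the mean most closely (0.81), then PRE4 (0.76) and PRE2 (0.74), while RPN13 (-0.50), PUP1 (-0.41) and RPN6 (-0.23) ran against it. These are descriptions over 18 conditions that share a platform and dyes. The subunit mean was among its highest in caffeine 2 mM at 5 min, at 0.182. The subunit median there was 0.436 on replicate 1 and -0.014 on replicate 2. Neither these correlations nor those below were computed without that condition. The mean profile correlated with RPN4 at r = -0.05, and only RPN5 exceeded 0.5 with it (0.52), while PRE6 stood at -0.66. RPN4 itself varied little, with a standard deviation of 0.113 over the conditions, about the size of the SE of its estimates. These correlations therefore cannot show whether the subunit genes follow RPN4.

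Of 4242 genes with all conditions, SRP14, for a subunit of the signal recognition particle, was most like the subunit mean (r = 0.832). YPT1, a GTPase of secretion (0.761), ACB1, a carrier of acyl-CoA (0.757), MTF2 (0.749), BNA4 (0.745), CHS3, a chitin synthase (0.743), and SNF1, the energy-sensing kinase (0.737), came next. YIM1, YEL023C and ELF1 closed the first 10, at 0.731, 0.731 and 0.727. Most like RPN4 were HMRA2 (0.865), MSH3 (0.845), VPS38 (0.797), CAT5 (0.795) and CWH43 (0.784), with the same limit that RPN4 varied little beyond its SE.

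Around the proteasome, other lists of the ubiquitin system were mixed in caffeine 20 mM at 90 min, where 22% of all genes rose and 22.4% fell. Unlike the members, genes of these lists were not followed through the alternative settings, so how firm their calls are is not known. Of 17 assembly and associated factors 3 rose and 2 fell. TMA17, a chaperone of ATPase assembly, read 0.459 and 0.503 (0.48 ± 0.16; limma, adjusted p = 0.0165), and POC4, a core assembly chaperone, read -0.619 and -0.702 (-0.66 ± 0.20; limma, adjusted p = 0.00985). The assembly factors thus held changes of both signs, as the subunits did.

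Of 16 genes for ubiquitin and its activation 2 rose and 4 fell, among them UBI4, the polyubiquitin gene, at -0.481 and -1.19 (-0.83 ± 0.10; limma, adjusted p = 1.17e-06). RPS31, which encodes ubiquitin fused to a ribosomal protein, fell by 1.27 ± 0.18 there. Of 14 ubiquitin ligases 4 rose and 6 fell. Of 14 Cdc48 and shuttle factors 1 rose and 5 fell, among them the shuttle genes RAD23 (-0.73 ± 0.15) and DDI1 (-0.78 ± 0.10).

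Of 15 deubiquitinating enzymes 8 rose and 0 fell, with a median of 0.49, beside -0.03 over all genes. UBP15 read 3.69 and 2.24 (2.96 ± 0.26; limma, adjusted p = 1.61e-08). Of 3 factors known to act on RPN4, PDR3, a regulator of drug resistance genes, read -1.1 and -1.23 and fell by 1.16 ± 0.12 (limma, adjusted p = 2.89e-07). HSF1 and YAP1, activators in heat and oxidative stress, did not pass, at 0.45 ± 0.26 and -0.22 ± 0.13.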

How the data were processed

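Each array compared RNA of a treated and an untreated yeast culture in Cy5 and Cy3. The deposited values are natural log ratios with a mean of 0 per array, as their whole-number ratios show (70.98% of repeated values, against 11.16% if read as log2); the sources used here do not give scanner, background correction or normalization. Values were divided by 0.6931 to give log2 ratios, the value repeated across spots (ratio 1) was left out as a floor, duplicate spots were averaged and each array was centred on its median. Log2 ratios of all 36 arrays were fitted in limma 3.58.1 (R 4.3.3) with 18 condition terms and a dye term, which is also the replicate block, for genes with values on at least 24 arrays and on both arrays of the conditions compared. The script was tested on simulated data.

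Same-numbered arrays deviated together in 153 of 153 pairs of conditions (correlations 0.114 to 0.826), so the block was kept. The dye term passed for 62.5% of 24 members and 66.7% of all genes with a value on every array. In all, 33 comparisons were fitted, 18 conditions and 15 contrasts. The split into 6 conditions and 6 contrasts where a member passed, described singly, and 12 and 9 where none did, given together, was made after the results were seen. The members and lists were chosen with earlier results of these data known. Any member could be named. Other genes were named as the 4 with the smallest p of a list, of which only some are printed, the 10 most like the subunit mean and the 5 most like RPN4. A search for the Rpn4 site in promoters was planned but not run, as no promoter sequence was used here. Alternatives changed the block, centring, scale, floor, filter, spots, arrays, weights, adjustment or the sign of 1 array.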

Additional observations from a re-analysis of the deposited data

Results flagged for a closer look

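All differences below, on the log2 scale, were tested in the fit itself and passed over all genes tested (limma, adjusted p below 0.05). At 90 min, caffeine 20 mM minus caffeine 2 mM gave -0.804 for PRE5, -0.627 for PRE8, -1.03 for RPT6, -0.665 for RPN3 and -0.956 for RPN12. All 5 genes lay lower at the high dose, but PRE5 passed under 5 and RPN12 under 4 of 13 alternatives.

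Within caffeine 20 mM, 90 minus 15 min gave 1.99 for RPN1, 1.21 for RPN9, 0.574 for PRE7 and 0.503 for SCL1. It gave -0.67 for PRE3, -0.765 for PRE8, -0.654 for RPT2, -0.685 for RPT4, -0.925 for RPT6, -0.483 for RPN3 and -0.458 for RPN5. Against 5 min, the 90 min values differed by 1.97 for RPN1, 0.974 for RPN9, 0.727 for PRE7 and 0.674 for SCL1, and by -0.512 for PRE3, -0.544 for PRE8, -0.576 for RPT2, -0.985 for RPT6 and -0.488 for RPN3. Both contrasts share the 90 min arrays, and the first uses 15 min replicate 1, whose untreated channel is labelled with another time. For 90 minus 15 min SCL1 passed under 3 and RPT4 under 5 of 13 alternatives, and RPN3 under 5, PRE7 under 6 and RPN5 under 6 of 14. For 90 minus 5 min RPN3 passed under 5 of 14.

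Caffeine 20 mM minus the mean of both dyes at 0.1 mg/ml gave 1.6 for RPN1 at 90 min. It gave -0.528 for PRE3, -0.697 for PRE5, -1.14 for PRE8, -0.487 for RPT2, -0.414 for RPT5, -0.719 for RPT6, -0.483 for RPN2 and -0.4 for RPN3. Of these, PRE5 passed under 5 of 14 alternatives, RPN2 under 5 and RPN3 under 4 of 15. At 15 min it gave -0.843 for RPN12, which passed under 3 of 14. In calcofluor white 0.1 mg/ml, 90 minus 15 min gave 0.726 for PRE8. Doses of different compounds are not matched, and what sets these differences was not tested.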

How the results depend on the processing

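Counts of members passing (limma) are given as all, then higher and lower where the split matters. With no replicate block they were 0 in caffeine 2 mM 5 min, 0 in caffeine 20 mM 15 min, 0 and 1 in calcofluor white 0.02 and 0.1 mg/ml 90 min, and 0 in congo red 0.1 mg/ml 90 min; of 60 member calls, 21 still passed. The contrasts gave 0 for caffeine 20 minus 2 mM, 5 and 3 for 90 minus 15 and 90 minus 5 min, 0 for calcofluor white over time, and 0 and 3 for caffeine minus the dyes at 15 and 90 min.

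With arrays scaled to one spread, 11 of 60 calls still passed. The counts were 0, 0 and 3 in caffeine 2 mM 5 min, 20 mM 15 min and 20 mM 90 min, 1 and 1 in calcofluor white, and 3 in congo red. The contrasts gave 0 for the doses, 2 and 2 for the caffeine times (1 higher and 1 lower, then 2 and 0), 0 for calcofluor white over time, and 0 and 1 for caffeine minus the dyes. Without centring they were 3 in caffeine 20 mM 15 min, 0 and 3 in calcofluor white (1 higher and 2 lower at 0.1 mg/ml), 2 in congo red, and 0 for calcofluor white over time and for caffeine minus the dyes at 15 min.

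RPN4 in caffeine 20 mM 15 min did not pass with no replicate block, adjustment over all conditions, array weights or its drug's arrays alone (0.311 each), scaling (0.212) or second spots (0.227), nor without either array (0.297 to 0.326). Array weights gave 0 in caffeine 2 mM 5 min, 3 in caffeine 20 mM 15 min, 4 in calcofluor white 0.02 mg/ml, 2 in congo red, 3 and 6 for caffeine doses and 90 minus 15 min, and 4 for caffeine minus the dyes. Arrays of the compared drugs alone gave 0, 1, 4 and 3 in those 4 conditions, 3 for the doses, and 5 and 2 for the caffeine times.

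Second spots gave 0, 3 and 3 in caffeine 2 mM 5 min, caffeine 20 mM 15 min and calcofluor white 0.1 mg/ml, and 4 for caffeine minus the dyes at 90 min. First spots gave 2 in congo red. Floored spots gave 3 in caffeine 20 mM 15 min, 2 in congo red and 0 for caffeine minus the dyes at 15 min. Genes on all arrays gave 2 in congo red, 3 for the doses and 0 for that same 15 min contrast. Joint adjustment gave 0, 1 and 2 in caffeine 20 mM 15 min, calcofluor white 0.02 mg/ml and congo red. With the sign of replicate 1 of caffeine 2 mM 5 min turned, 5 members passed (2 higher, 3 lower) and PRE10 reversed to -0.148, the only change of side among these refits. The causes of these shifts were not tested.

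Leaving out 1 array at a time, counts ranged over 2 to 13 in caffeine 2 mM 5 min, 0 to 1 in caffeine 20 mM 15 min, 5 to 8 in caffeine 20 mM 90 min, 0 to 1 and 1 to 1 in calcofluor white 0.02 and 0.1 mg/ml, and 0 to 0 in congo red. The contrasts ranged over 1 to 5 for the doses, 5 to 15 and 3 to 9 for the caffeine times, 0 to 1 for calcofluor white over time, and 0 to 1 and 4 to 10 for caffeine minus the dyes. The other 12 conditions, at 0, gave 2 with scaling, 2 with joint adjustment, 4 with array weights and 0 to 1 without an array. The other 9 contrasts gave 1 with array weights and 0 to 13 without an array. With 2 arrays per condition and replicate arrays that often disagree, small changes of a member are not detectable.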
